A study of Mus musculus with 32 samples.

Results

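miR-221 and miR-222 are sister microRNAs known for their role in the growth of vascular smooth muscle. They were followed in the mesenteric arteries of mice infused with angiotensin II (Ang II), the peptide hormone that raises blood pressure and makes arterial walls thicken. All rows named miR-221 or miR-222 were taken, which gave 4 rows of the 1030 distinct miRNA rows in the deposited table, namely the 3p and 5p arms of both. Each of these names had a single row, and 3 of the 4 arms were among the 543 rows tested. Rows were picked by name and not by measured value, though the sisters were chosen as a topic with earlier results of these data known.

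The 4 groups of libraries compared are written here as 7-day Ang II, 7-day sham, 14-day Ang II and 14-day sham, with 8 libraries each. All mice were male C57BL/6J and were 10 to 12 weeks old. Ang II was given by a minipump under the skin at a rate of 1000 ng/kg/min, and arteries were taken after 7 or 14 days, and the controls had a sham operation. Each library was made from 1 µg of total RNA from whole dissected arteries, and the labels give 10 mice per group without tying each library to a mouse, so p-values measure the spread between libraries. In such a bulk tissue, fewer cells of a type and less RNA per cell cannot be told apart.

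A microRNA is cut from a hairpin, and one arm of the hairpin is usually retained in the silencing complex while the other is discarded. The retained arm finds its targets mainly through its seed, bases 2 to 8. The 3p arm of both miR-221 and miR-222 is the retained one, and because the seeds are the same the sisters share many targets, among them the cell cycle inhibitors Cdkn1b and Cdkn1c and the receptor gene Kit. In injured rat arteries both are known to be raised in smooth muscle and to favour its growth, whereas in cultured human endothelial cells they are known to restrain growth by lowering KIT. Both are also made in blood cells.

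The mature sequences, from RefSeq on GRCm38.p6, are shown because the shared seed is what makes the pair a family; capitals mark the seed. RefSeq sequences were matched for 3 of the 4 arms.
miR-221-3p: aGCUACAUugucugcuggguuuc
miR-222-3p: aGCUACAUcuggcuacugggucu
miR-221-5p: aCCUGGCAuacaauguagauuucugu
The lead arms, miR-221-3p and miR-222-3p, begin with the same 8 bases and hold the same base at 11 of 23 positions counted from the 5′ end. Of 1738 mature mouse sequences searched, 3 carry the seed GCUACAU, the third being miR-1928, which has 0 rows in the table. The seed CCUGGCA of miR-221-5p occurs in 1 sequence, its own.

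The hairpins are shown to place the arms, with the mature arms listed above in capitals.
Mir221: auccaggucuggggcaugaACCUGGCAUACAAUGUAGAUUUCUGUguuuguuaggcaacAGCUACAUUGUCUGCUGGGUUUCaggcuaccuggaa
Mir222: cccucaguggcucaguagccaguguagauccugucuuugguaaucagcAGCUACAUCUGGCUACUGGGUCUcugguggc
Mir221 lies on the minus strand of chromosome X at 19146294 to 19146388, and Mir222 on the same strand at 19146893 to 19146971, with 504 bases between them (GRCm38). In GENCODE M21, 0 other genes overlap the hairpins or the stretch between them. The nearest is Gm14636, annotated as a processed transcript, on the same strand at 19156981 to 19167241, whose boundary lies 10010 bases from Mir222.

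Levels are given in normalised RPM, the authors' own scaling of reads to roughly reads per 1 M reads. Depth over the distinct rows was 11.4 to 18.8 M reads per library, and 3 reads stood at 0.0888 to 0.351 RPM, a floor that covers counting error only. The smooth muscle miRNA miR-143-3p averaged 397283 ± 109504 RPM in 14-day Ang II and 495362 ± 152290 RPM in 14-day sham libraries (SD over 8 libraries per group), so this marker of smooth muscle was present at a high level. The libraries were split by k-means into a pair of classes along the first principal component of their spread within groups, computed without the miR-221 and miR-222 rows. The number of classes was set beforehand, and whether the libraries form separate classes was not tested. That component held 35.6% of the variance, and class A had 19 libraries and class B 13. Class A held 3 of the 8 libraries in 7-day Ang II and 5 of 8 in 7-day sham, and 6 of 8 in 14-day Ang II and 5 of 8 in 14-day sham.

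The 3p arms were far more abundant than their 5p partners in every library. miR-221-3p averaged 139 ± 24.3 RPM over the 32 libraries (SD), ranked 110 of the 1030 rows, and rested on 884 to 5635 reads per library. miR-222-3p averaged 58.6 ± 16.4 RPM (SD, n = 32), ranked 158, and rested on 345 to 2142 reads. miR-221-5p, the discarded arm of miR-221, averaged 7.23 ± 1.57 RPM and rested on 57 to 224 reads. miR-222-5p averaged 0.897 ± 0.284 RPM and rested on 5 to 41 reads, which left it under the minimum mean of 1 RPM for the test. The 4 arms together took 0.0223% ± 0.00821 of the reads in distinct rows (SD, n = 32), between 0.0106% and 0.0432%.

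**Figure D1:**
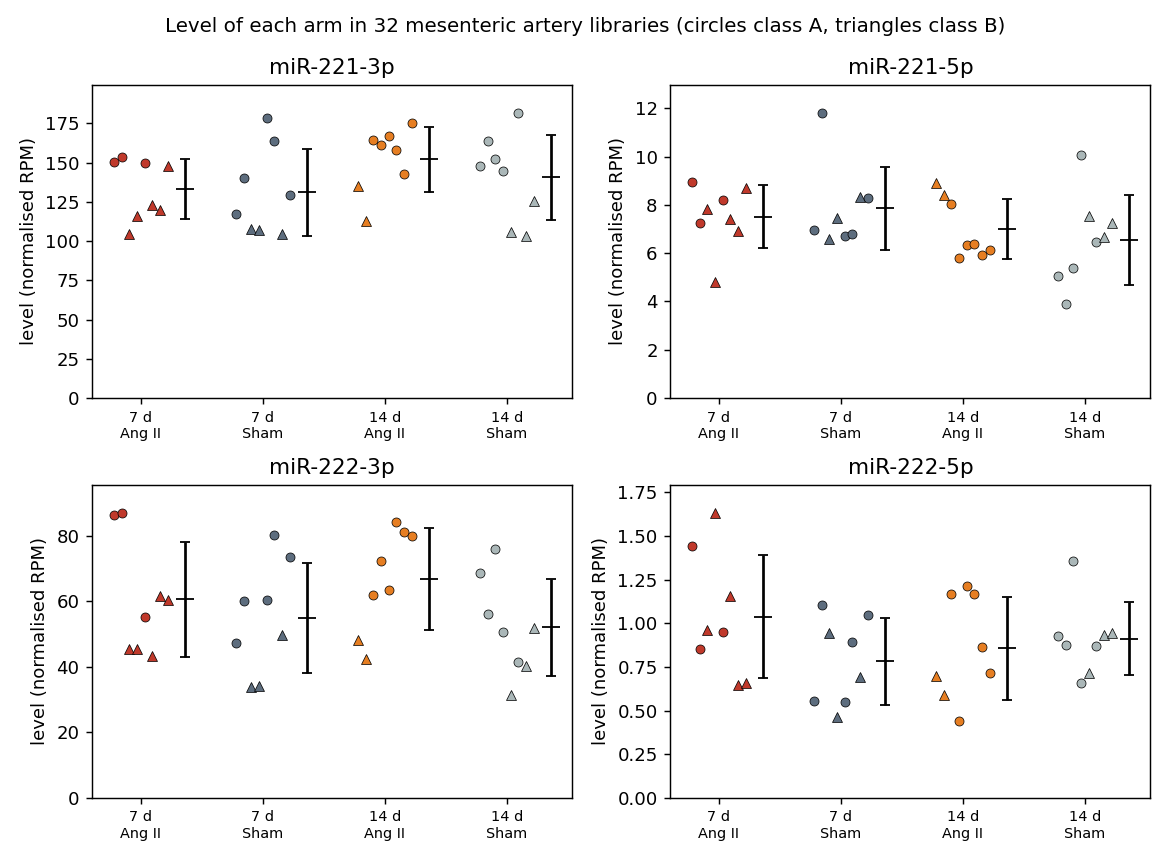
Normalised RPM (vertical axis, from 0) of the 4 arms in each library, by group; circles are class A, triangles class B, and bars show the mean ± SD of 8 libraries. The groups overlap for each arm, and in each group the median of miR-221-3p and of miR-222-3p is higher among circles than among triangles.

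At 7 days none of the arms passed the test between Ang II and sham, which asked for an adjusted p under 0.05 (a call). miR-221-3p ran from 104 to 154 RPM with a median of 135 in 7-day Ang II libraries, against 105 to 179 with a median of 123 in 7-day sham libraries. The means were 133 ± 19.4 RPM in Ang II libraries and 131 ± 27.8 RPM in sham (SD over 8 libraries per group). The groups overlapped almost fully, with 4 of the 8 infused samples above the sham median. The log2 fold change, on the log2(RPM + 1) scale used for every fold change here, was 0.04 ± 0.13 (SE; 95% interval -0.23 to 0.30; limma adjusted p = 0.978).

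miR-222-3p ran from 43.3 to 86.9 RPM with a median of 57.8 in 7-day Ang II libraries, against 33.8 to 80.3 with a median of 54.9 in 7-day sham libraries. It averaged 60.6 ± 17.5 RPM in Ang II libraries and 54.9 ± 16.9 RPM in sham (SD over 8 libraries per group), and 5 of the 8 infused samples lay above the sham median. Its log2 fold change was 0.15 ± 0.20 (SE; 95% interval -0.25 to 0.56; limma adjusted p = 0.953). The direction depended on which libraries were set side by side. Among libraries whose sample number begins with 27 it was 0.51 (5 Ang II and 4 sham), and among those beginning with 28 it was -0.25 (3 and 4). For miR-221-3p these values were 0.18 and -0.12. Within class A the log2 fold change of miR-222-3p was 0.24 (3 and 5) and within class B 0.38 (5 and 3), both above the pooled value.

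Neither 5p arm passed either. miR-221-5p averaged 7.51 ± 1.30 RPM in 7-day Ang II and 7.87 ± 1.73 RPM in 7-day sham (SD over 8 libraries per group; log2 fold change -0.06, limma adjusted p = 0.958). miR-222-5p ran from 0.647 to 1.63 RPM in 7-day Ang II libraries, against 0.460 to 1.11 RPM in 7-day sham libraries, with 3 of the 8 infused samples exceeding the highest sham value. With no filter on low values its log2 fold change was 0.19 (95% interval -0.03 to 0.41; limma adjusted p = 0.818). Over all miRNAs 0.184% of the 543 tested rows were called at 7 days, against 0 of the 3 tested arms.

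At 14 days miR-222-3p had the largest fold change of the tested arms, and it did not pass the test. It ran from 42.3 to 84.3 RPM with a median of 67.9 in 14-day Ang II libraries, against 31.5 to 76.0 with a median of 51.2 in 14-day sham libraries. The means were 66.7 ± 15.5 RPM in Ang II libraries and 52.0 ± 14.8 RPM in sham (SD over 8 libraries per group). Of the 8 infused samples, 6 exceeded the sham median and 3 exceeded the highest sham value, so the groups overlapped. Those 3, replicates 6, 7 and 8, had sample numbers beginning with 28, 30 and 30. No sham library begins with 30, and of the 14-day sham libraries replicate 8 alone begins with 28. The log2 fold change was 0.37 ± 0.20 (SE; 1.29-fold; 95% interval -0.04 to 0.77; limma adjusted p = 0.236). The interval includes 0.

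Of the other tested arms at 14 days, miR-221-3p ran from 113 to 175 RPM with a median of 160 in Ang II libraries, against 103 to 181 with a median of 146 in sham libraries. It averaged 152 ± 20.5 RPM in Ang II libraries and 140.5 ± 27.3 RPM in sham (SD over 8 libraries per group; log2 fold change 0.12 ± 0.13 SE, 95% interval -0.14 to 0.39, limma adjusted p = 0.564). The highest and the lowest library of the 16 were both sham. miR-221-5p averaged 6.99 ± 1.25 RPM in Ang II libraries and 6.54 ± 1.86 RPM in sham (SD over 8 libraries per group; log2 fold change 0.11, limma adjusted p = 0.669). miR-222-5p averaged 0.857 ± 0.295 RPM in Ang II libraries and 0.911 ± 0.210 RPM in sham (SD over 8 libraries per group; log2 fold change -0.05, limma adjusted p = 0.880 with no filter).

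Over all miRNAs 6.45% of the 543 rows were called at 14 days, against 0 of the 3 tested arms. By limma, edgeR and DESeq2 alike, 0 of the 4 arms had an unadjusted p under 0.05 at 7 or at 14 days, the smallest being 0.0561 for miR-222-3p at 14 days with edgeR. Among libraries numbered from 26 the 14-day log2 fold change of miR-222-3p was 0.13 and that of miR-221-3p -0.0085 (5 Ang II and 6 sham). Within class A it was 0.35 for miR-222-3p and 0.03 for miR-221-3p (6 and 5). In class A, miR-222-3p ran from 62.0 to 84.3 RPM in 14-day Ang II and from 41.4 to 76.0 RPM in 14-day sham libraries. Class B held 2 Ang II libraries, at 42.3 and 48.3 RPM, and 3 sham libraries between 31.5 and 51.9 RPM. With library totals alone in place of the authors' scaling, the 14-day log2 fold changes were 0.63 for miR-222-3p (adjusted p = 0.229) and 0.39 for miR-221-3p (adjusted p = 0.385). That scaling also moved the median of all tested rows to 0.23.

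**Figure D2:**
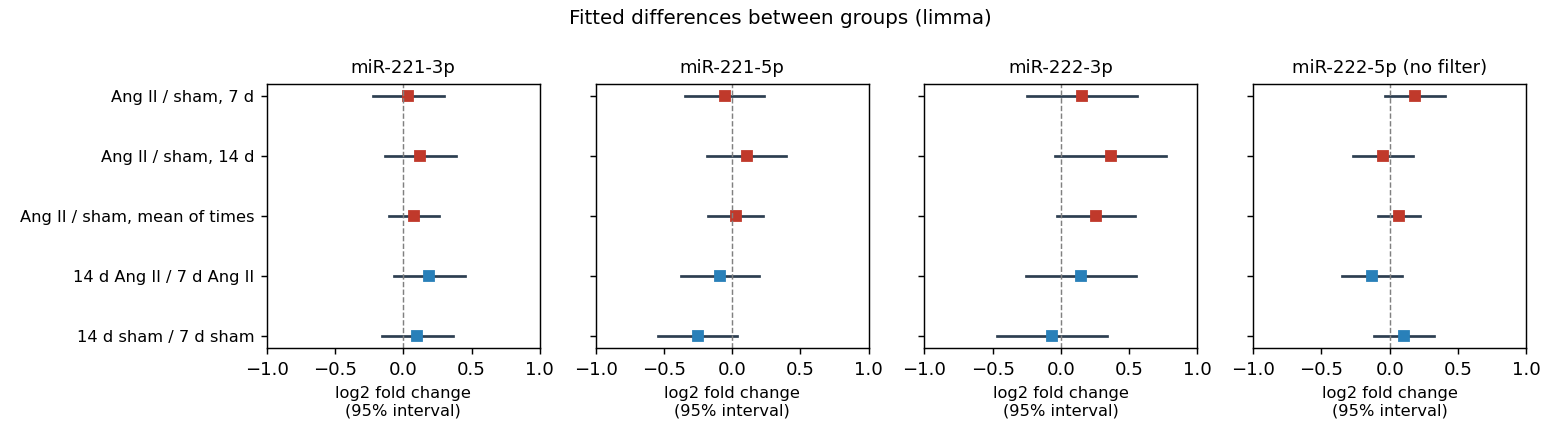
Log2 fold change (squares) with its 95% interval (lines) for each arm in 5 comparisons, red for Ang II against sham and blue for 14 against 7 days. Each interval includes 0; the one for miR-222-3p at 14 days runs from -0.04 to 0.77.

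Averaged over 7 and 14 days, the Ang II effect had a log2 fold change of 0.26 for miR-222-3p (95% interval -0.03 to 0.55; limma adjusted p = 0.232), of 0.08 for miR-221-3p (adjusted p = 0.604), of 0.03 for miR-221-5p (adjusted p = 0.902) and, with no filter, of 0.07 for miR-222-5p (adjusted p = 0.702). With the library class as a term in the fit, the value for miR-222-3p was 0.30 and passed (limma adjusted p = 0.0249). That fit called 129 of 543 rows, against 40 without the term, which is 7.37% of rows. It was the 1 setting of 12 other than leaving out a library in which this result passed. The classes were derived from the within-group spread of these same libraries, and the fit treats them as known beforehand. Its p-value therefore cannot be read as an independent result.

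The Ang II effect was not shown to differ between the times. The difference of the log2 fold changes, 14 days minus 7 days, was 0.21 ± 0.28 for miR-222-3p (SE, limma adjusted p = 0.887), 0.09 ± 0.18 for miR-221-3p (adjusted p = 0.935) and 0.16 ± 0.20 for miR-221-5p (adjusted p = 0.887). With no filter it was -0.24 ± 0.15 for miR-222-5p (adjusted p = 0.879). For this difference 0 of 543 rows were called, which is 0%, with 25 at an unadjusted p under 0.05 by limma, and edgeR and DESeq2 called 0.

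Between 14-day and 7-day Ang II libraries, miR-221-3p differed by a log2 fold change of 0.19 (95% interval -0.07 to 0.45; limma adjusted p = 0.686). In that pair 5 of 8 libraries of the 14-day group lay above every 7-day library. With the leading digits of the sample number as a term the value was -0.05. Numbers beginning with 26 or 30 occur only among 14-day libraries, and every 7-day library begins with 27 or 28. Only the few 14-day libraries beginning with 27 or 28 link the times in that fit. So time and sample number cannot be fully told apart in the comparisons of times. miR-222-3p differed by 0.15 (adjusted p = 0.808), miR-221-5p by -0.09 (adjusted p = 0.814) and miR-222-5p by -0.13 with no filter (adjusted p = 0.792). Between 14-day and 7-day sham, miR-221-5p had the largest difference, at 6.54 ± 1.86 RPM after 14 days and 7.87 ± 1.73 RPM after 7 days (SD over 8 libraries per group). Its log2 fold change was -0.25 (95% interval -0.54 to 0.04; limma adjusted p = 0.996), and 4 of 8 libraries of the 14-day group lay below every 7-day library. The lead arms differed less, with 0.10 for miR-221-3p and -0.06 for miR-222-3p (adjusted p = 0.996 each), and miR-222-5p had 0.11 with no filter (adjusted p = 1). In both comparisons of times limma called 0 of 543 rows, which is 0%, with 40 (Ang II) and 18 (sham) at an unadjusted p under 0.05. edgeR and DESeq2 called 0 rows between the Ang II groups and 1 each between the sham groups.

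By mean level, the order of the groups for miR-222-3p was 14-day Ang II, 7-day Ang II, 7-day sham and 14-day sham. For miR-221-3p it was 14-day Ang II, 14-day sham, 7-day Ang II and 7-day sham. For miR-221-5p the order was 7-day sham, 7-day Ang II, 14-day Ang II and 14-day sham, and for miR-222-5p it was 7-day Ang II, 14-day sham, 14-day Ang II and 7-day sham. Neighbours in each order lay within 1 SD of each other.

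Ratios of reads within a library show the balance of the arms and do not depend on the library scaling. miR-222-3p had 0.420 ± 0.0876 reads for each read of miR-221-3p over the 32 libraries (SD), with a range of 0.228 to 0.574. miR-221-3p had a median of 17.3 reads for each read of miR-221-5p, between 11.9 and 41.8. For miR-222 the median ratio of 3p to 5p reads was 69.6, between 27.9 and 164. So the lead arm exceeded its partner at least 11.9 times in each library.

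The 3p to 5p ratio of miR-222 was the one that stood apart most between groups, and it did not pass after adjustment over the 12 ratio tests. It ran from 52.2 to 164 with a median of 72.0 in 14-day Ang II libraries, against 43.1 to 76.9 with a median of 55.5 in 14-day sham libraries. The 12 tests added 1 RPM to each arm, so they do depend on the scaling, and for miR-222 the added value is larger than the mean of miR-222-5p, 0.897 RPM. With it the mean log2 ratio was 5.17 ± 0.37 in Ang II libraries and 4.75 ± 0.33 in sham (SD over 8 libraries per group), a difference of 0.42 (exact two-sided permutation p = 0.0331, adjusted p = 0.397). From reads with nothing added, a setting chosen after seeing the data, the difference was 0.51 (exact permutation p = 0.0381, adjusted p = 0.339). At 7 days the read ratio ran from 27.9 to 102 with a median of 59.0 in Ang II libraries, against 35.9 to 109 with a median of 72.8 in sham libraries. The difference in mean log2 ratio was -0.25 from reads with nothing added (exact permutation p = 0.412, adjusted p = 0.563) and -0.03 with 1 RPM added (exact permutation p = 0.879, adjusted p = 0.944). The ratio of miR-222-3p to miR-221-3p differed by 0.24 at 14 days and by 0.12 at 7 days between Ang II and sham (exact permutation p = 0.140 and 0.424, adjusted p = 0.431 and 0.636). The 3p to 5p ratio of miR-221 differed by 0.02 at 14 days (-0.0025 from reads with nothing added) and by 0.09 at 7 days (exact permutation p = 0.944 and 0.573, adjusted p = 0.944 and 0.764). Between 14 and 7 days it was higher by 0.28 in Ang II and by 0.35 in sham libraries (exact permutation p = 0.0976 and 0.144, adjusted p = 0.431 each). Class A held 6 libraries of 14-day Ang II and 3 of 7-day Ang II, and 5 in each sham group. The 3p arms differed more between the classes than the 5p arms, so these ratios are not free of the classes. The part of the classes in the ratios was not tested.

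**Figure D3:**
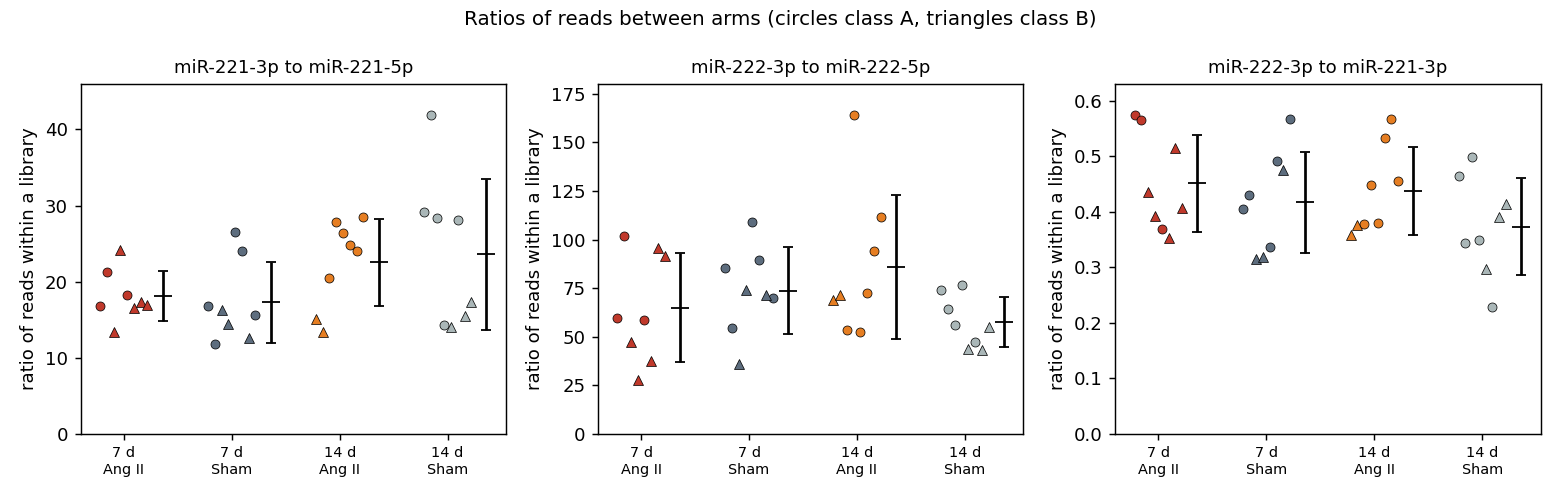
Ratio of reads within each library (vertical axis, from 0) for the 3p to 5p arms of miR-221, the 3p to 5p arms of miR-222, and miR-222-3p to miR-221-3p; circles are class A, triangles class B, and bars show the mean ± SD of 8 libraries. The ratio of miR-222-3p to miR-221-3p lies between 0.228 and 0.574 in the 32 libraries.

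The lead arms were both higher in class A than in class B libraries. The classes follow the main axis of spread of the other tested rows, and the share of rows that differ between them was not counted. Summed RPM over the distinct rows ran from 0.55 to 1.05 M in class A and from 0.96 to 1.42 M in class B. Relative to its group mean, miR-222-3p stood on average at 0.23 (log2) in class A libraries and at -0.33 in class B, and miR-221-3p at 0.15 in class A and at -0.22 in class B. The 5p arms were nearly level between the classes, at -0.03 in class A and 0.04 in class B for miR-221-5p, and at 0.04 and -0.06 for miR-222-5p. Within class A the deviations of miR-221-3p and miR-222-3p had a Pearson r of -0.0090 (n = 19, permutation p = 0.971) and a Spearman rho of -0.146 (permutation p = 0.550). Within class B r was 0.528 (n = 13, permutation p = 0.0618, adjusted p = 0.371 over 12 tests) and rho 0.258 (permutation p = 0.395, adjusted p = 0.670). Without the 2 libraries farthest from the median of miR-221-3p, r was -0.244 in class A and 0.435 in class B. With library totals alone r was 0.261 in class A and 0.572 in class B. Of the other pairs of arms, the lowest p belonged to miR-221-5p and miR-222-5p in class B, with r of -0.719 (n = 13, permutation p = 0.00754, adjusted p = 0.0905) and rho of -0.445 (permutation p = 0.131). It rested on the 2 libraries farthest from the median of miR-221-5p, since r was -0.2 without them. The permutations ran freely over the libraries of a class, although the mean of each group had been removed. The permutation p-values of these correlations can therefore be too small.

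**Figure D4:**
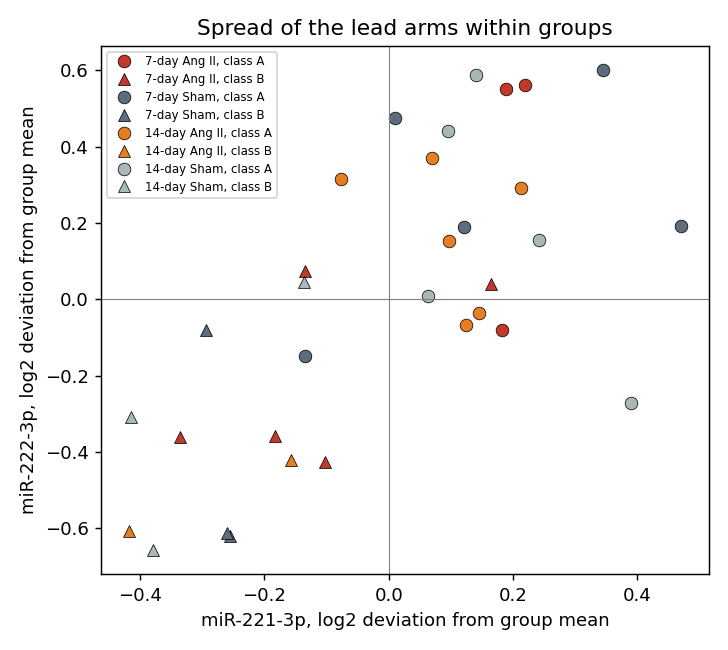
Deviation of each library from its group mean (log2) for miR-221-3p (horizontal axis) and miR-222-3p (vertical axis); circles are class A, triangles class B, colours the groups. Triangles lie mostly at the lower left and circles at the upper right, with r of -0.0090 among circles and 0.528 among triangles once group means are taken within each class.

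The miRNAs whose within-group pattern was most like that of each sister were mostly different. For miR-222-3p the 5 nearest of 279 rows averaging 10 RPM or more were miR-423-3p (Pearson r = 0.91 over 32 libraries), miR-143-5p (0.902), let-7b-5p (0.886), let-7d-5p (0.878) and miR-125a-5p (0.859). These held within the classes, where r ran from 0.77 for let-7b-5p to 0.96 for miR-125a-5p in class A, and from 0.667 for let-7b-5p to 0.877 for miR-423-3p in class B. For miR-221-3p they were miR-652-3p (0.804), miR-497-5p (0.76), miR-143-5p (0.747), let-7g-5p (0.728) and let-7j (0.725). Within the classes miR-652-3p had 0.484 in class A and 0.724 in class B, while miR-497-5p had 0.0386 and 0.0792. In the same order let-7g-5p had 0.434 and -0.0648, and let-7j 0.354 and 0.322. So the likenesses to miR-221-3p were mostly weaker within the classes than over all 32 libraries. miR-143-5p, the discarded arm of a smooth muscle miRNA, was in both sets, but its r with miR-221-3p was -0.116 in class A and 0.579 in class B, against 0.823 and 0.779 with miR-222-3p. The sister itself ranked 15 for miR-221-3p and 51 for miR-222-3p. These likenesses are descriptions of libraries that share their scaling and their classes.

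Other miRNAs tied to smooth muscle growth were set beside the sisters as a list of 12 tested arms of miR-21a, miR-31, miR-146a, miR-146b, miR-130a, miR-24, miR-26a and miR-155. This list and the contractile list below were chosen with earlier results of these data known. At 14 days 8 of the 12 lay above 0 and 4 below, with a median log2 fold change of 0.08 against 0.002 over all 543 rows, and 0 were called. At 7 days 6 lay above 0 and 6 below, the median was -0.01 against -0.01 over all rows, and 0 were called. The smallest p at 7 days belonged to miR-21a-5p, with 4411 ± 1098 RPM in Ang II and 2828 ± 491 RPM in sham (SD over 8 libraries per group, log2 fold change 0.62, limma adjusted p = 0.373). Next came miR-21a-3p with a log2 fold change of 0.78 and miR-24-1-5p with -0.40 (limma adjusted p = 0.438 each). Averaged over both times, 6 of the 12 lay above 0 and 6 below. miR-21a-5p, known to rise in injured arteries, was the 1 of 12 called, as higher (log2 fold change 0.49, limma adjusted p = 0.0342), where 7.37% of all tested rows were called. At 14 days the smallest p belonged to miR-130a-3p, with 381 ± 42.5 RPM in Ang II and 432 ± 32.1 RPM in sham (SD over 8 libraries per group, limma adjusted p = 0.120). miR-155-5p had 30.9 ± 10.2 RPM in Ang II and 23.5 ± 4.37 RPM in sham (SD over 8 libraries per group, limma adjusted p = 0.168).

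The contractile list, 7 tested arms of miR-143, miR-145a, miR-133a and miR-1a, which are known for restraining growth or marking contractile muscle, had 2 arms above 0 and 5 below at 14 days, with a median of -0.12, and 0 were called. At 7 days 1 lay above 0 and 6 below, with a median of -0.12. Of these, miR-145a-3p alone was called, as lower (596 ± 142 RPM in Ang II libraries and 896 ± 159 RPM in sham, SD over 8 libraries per group, limma adjusted p = 0.0280). It was the 1 row of 543 called at 7 days (0.184%). The call was lost, with 0 rows called, in 10 of the 16 fits with a library left out (7-day Ang II replicates 1, 2, 3, 4 and 5, and 7-day sham replicates 2, 5, 6, 7 and 8), with library totals alone and with the compared groups alone. Between 14-day and 7-day sham libraries the same arm had a log2 fold change of -0.555 (limma adjusted p = 0.0817). Averaged over both times, 2 of the 7 contractile arms lay above 0 and 5 below, with a median of -0.17 against -0.03 over all rows. miR-145a-3p was the 1 of 7 called, as lower (log2 fold change -0.36, limma adjusted p = 0.0138), where 7.37% of all tested rows were called.

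Since the sisters are also made in endothelium and blood cells, markers of those cells are given beside the 14-day values. The summed red cell markers (5 rows of miR-144, miR-451a and miR-486) ran from 14978 to 53139 RPM in 14-day Ang II and from 5951 to 50268 RPM in 14-day sham, with medians of 25583 and 13420. All 5 rows had a log2 fold change above 0, and miR-451a and miR-144-5p were called higher (limma adjusted p = 0.0296 and 0.0493), where 6.45% of all tested rows were called. The leukocyte markers (6 rows of miR-142, miR-223 and miR-150) ran from 589 to 1319 RPM with Ang II, with a median of 949, and from 525 to 994 RPM in sham, with a median of 681. The endothelial markers (both arms of miR-126) ran from 12975 to 25109 RPM with Ang II, with a median of 16372, and from 16900 to 35282 RPM in sham, with a median of 25353. The epithelial markers (10 rows of the miR-200 family), which would come from neighbouring tissue, ran from 1066 to 1711 RPM with Ang II, with a median of 1279, and from 1273 to 4925 RPM in sham, with a median of 2475. Of the 5 tested leukocyte rows 4 had a log2 fold change above 0 and 1 below, while the 2 endothelial rows and the 8 tested epithelial rows all lay below 0. Of these leukocyte, endothelial and epithelial rows 0 were called. The part of these cells in the levels of miR-221 and miR-222 was not tested.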

How the data were processed

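Small RNA libraries (TruSeq) from 32 mesenteric artery samples were used. Per the submitters' processing notes, the tools were bcl2fastq 1.8.4, FastQC, STAR 2.3.1, R 3.2.3 and edgeR 3.6.8 with build mm10, with no roles given; which miRNA annotation was counted, and how multiply mapped reads were handled, is not given in the sources used here. The table deposited by the authors holds a normalised signal without a stated unit. Within 0.001 read, 100% of the values above 0 were whole multiples of a step of each library, so the deposited signal corresponds to whole reads scaled as RPM, with totals of 0.727 to 1.67 M. Of 1722 rows, 364 were 0 throughout; the highest-mean row per repeated name was kept and rows with equal reads were merged, which left 1030 rows. The 543 with a mean of at least 1 RPM were tested on log2(RPM + 1) with the trend option of limma 3.58.1 in R 4.3.3, the 4 groups in 1 model, two-sided, with Benjamini-Hochberg adjustment over all tested rows and calls under 0.05. miR-222-5p came from the same fit to all 1030 rows. Ratios were compared by exact permutation tests, adjusted over 12 tests, and correlations by permutation with 100000 resamples. Libraries were split into classes A and B by k-means on the first principal component. The limma, edgeR and DESeq2 fits were run on simulated reads for the 14-day comparison of Ang II and sham alone. That simulation had no library classes, and its outcome is not reported here. The ratio and correlation tests were not simulated. Alternatives were other scalings, filters, pseudocounts, covariates, edgeR 4.0.16 and DESeq2 1.42.0 on recovered reads, and each library left out. The edgeR call counts on recovered reads were 1 at 7 days and 55 at 14 days. Other miRNAs were named as the 5 most correlated with each 3p arm, and from the lists those called or with the smallest p. The members and lists were chosen with earlier results of these data known.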

Additional observations from a re-analysis of the deposited data

Results flagged for a closer look

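Of 28 sets of 8 values checked for a stray library (4 arms and 3 ratios in 4 groups), 2 held one whose gap to its neighbour took up more of the range than Dixon's 95% critical value allows. Chance flags about 1 in 20 such sets. The highest 7-day sham library for miR-221-5p, replicate 2, stood at 11.79 RPM. The highest 14-day sham library for miR-222-5p, replicate 3, stood at 1.359 RPM.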

How the results depend on the processing

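Over the ratios and the fits of the arms, 303 of 319 values under other settings kept the direction and the side of the threshold. With a library left out 679 of 704 values did so, and the other 25 of 704 changed sign and none became a call. No main value was a call, so there was no call to lose, and the fits share most or all of their libraries. These counts therefore cannot show how firm a result is. The log2 fold change of miR-222-3p at 14 days ran from 0.13 to 0.63 over the other settings (adjusted p 0.138 to 0.494) and from 0.27 to 0.45 with a library left out (adjusted p 0.129 to 0.399). With the library class, which was derived from these same libraries, as a term, the average effect for miR-222-3p was 0.2969 and passed (limma adjusted p = 0.0249, and 0.0249 to 0.348 over its settings). That term also gave -0.06447 for miR-221-3p and -0.01381 for miR-222-3p in the difference between times, and -0.07798 for miR-222-3p between the Ang II groups. With the leading digits of the sample number, which largely followed the time, as a term, 14-day against 7-day values were -0.05256 (Ang II) and -0.06611 (sham) for miR-221-3p, and 0.001651 for miR-221-5p and 0.008654 for miR-222-5p (Ang II). With library totals alone they were 0.1049 for miR-221-5p between the Ang II groups and 0.0888 for miR-222-5p at 14 days. Among libraries numbered from 28, the 7-day values were -0.121 for miR-221-3p, 0.0255 for miR-221-5p and -0.248 for miR-222-3p, and among those from 26 the 14-day value of miR-221-3p was -0.00853. With a pseudocount of 10 the 7-day difference in the 3p to 5p ratio of miR-222 was 0.09588. From reads with nothing added, chosen after seeing the data, the 14-day difference in the 3p to 5p ratio of miR-221 was -0.002455. The causes of these changes were not tested. With a library left out, the values that changed sign spanned 0: -0.005843 to 0.1034 for miR-221-3p and -0.08981 to 0.02323 for miR-221-5p at 7 days, -0.01556 to 0.06809 for miR-221-5p on average, and -0.1529 to 0.02977 for miR-222-3p between sham groups. For ratios they were -0.06758 to 0.1352 for miR-221 3p to 5p at 14 days, -0.1429 to 0.07198 for miR-222 3p to 5p at 7 days, and -0.09924 to 0.008569 for miR-222-3p to miR-221-3p between Ang II groups. The 14-day calls over all rows were 35, against 23 with library totals, 17 with no filter, 80 with the class term, 3 with the compared groups alone, 55 with edgeR and 61 with DESeq2. A minimum mean of 10 RPM left no value for the 5p arms. No paired analysis was possible because the labels give no replicate numbers shared between groups. The 5 to 41 reads of miR-222-5p per library limit its precision.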
